A study of Homo sapiens with 6 samples.

Results

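The protein kinases AKT1 and AKT2 and 7 genes that switch them on, switch them off or carry their signal onward were examined in LNCaP-AI cells after knockdown of the long non-coding RNA PCAT1. All rows whose gene name was AKT1, AKT2, PDPK1, RICTOR, PHLPP1, PHLPP2, INPP4B, TSC1 or TSC2 were taken, which gave 25 transcripts of 9 genes among 29091 transcripts under 11848 gene names. LNCaP-AI is an androgen-independent line obtained from the human prostate cancer line LNCaP by prolonged culture in medium with charcoal-stripped serum, which is depleted of androgen. The shPCAT1 group was 3 samples of these cells transfected with an shRNA against PCAT1, and the shSCR group was 3 samples of the same cells transfected with a scramble shRNA. The level of PCAT1 was not analysed here, and the depth of its knockdown was therefore not checked. The labels do not say whether the replicates were separate cultures, so the p-values measure the spread between these samples only, which may be technical.

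AKT kinases are recruited to the plasma membrane by the phosphoinositides that PI3K makes, are phosphorylated in the activation loop by PDK1, the product of PDPK1, and in a hydrophobic motif near the C terminus by mTORC2, of which RICTOR is the defining subunit. The phosphatases PHLPP1 and PHLPP2 remove the phosphate from the hydrophobic motif, and INPP4B removes one of the membrane lipids that hold AKT in place. TSC2, in complex with TSC1, restrains RHEB and mTORC1, and phosphorylation of TSC2 by AKT lifts that restraint. In prostate cancer the pathway is best known for promoting growth and survival of the tumour cells. RNA-seq measures the transcripts of these genes and not the phosphorylation through which they act.

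The unit of all levels is FPKM, fragments scaled by transcript length and by the mapped reads of the library, as deposited by the authors for each transcript. A gene sum is the total over the listed transcripts of a gene, and a share is the percentage of that sum held by 1 transcript. Depth per library is unknown, because reads were not counted in the values used here, and bulk RNA cannot tell fewer expressing cells from less RNA per cell. All 10 luminal prostate markers examined were in the table, and their summed level was 1345 to 1518 FPKM in shPCAT1 and 1651 to 2094 FPKM in shSCR. Basal, neuroendocrine, fibroblast, immune and endothelial lists had 2 of 4, 2 of 6, 2 of 6, 1 of 5 and 1 of 4 markers in the table, with summed levels of at most 27.8 FPKM in any sample. The luminal sums and the fibroblast sums (2.55 to 4.44 FPKM in shPCAT1 and 6.85 to 12.9 FPKM in shSCR, from COL1A1 and PDGFRB alone) did not overlap between the groups, and their part in the results was not tested.

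The third scramble sample stood apart from the other 5. Its correlation with them across genes was 0.809 to 0.845, against 0.910 to 0.946 among the other samples, and its departure from the other shSCR samples moved with GC content. The median difference between shSCR 3 and the mean of shSCR 1 and 2, on the scale log2(FPKM + 1), was -0.47 in the 2687 genes with the lowest GC content and 0.77 in the 2687 with the highest. Several of the 9 genes followed this course. AKT1, TSC2 and PHLPP1, with a GC content of 61.1%, 60.6% and 56.3%, were at 2.08, 1.91 and 2.08 times the mean of shSCR 1 and 2 in shSCR 3. RICTOR and INPP4B, with 36.5% and 37.1% GC, were at 0.294 and 0.322 times that mean. PHLPP2, PDPK1 and TSC1, with GC contents between those of these groups, were at 1.13, 0.767 and 0.741 times that mean. AKT2 departed from the course, being at 0.979 times that mean with 58.0% GC. The main differences are therefore also given without shSCR 3. Leaving it out does not remove every course along GC content. The median difference between shPCAT1 and the mean of shSCR 1 and 2 was 0.11 in the 2687 genes with the lowest GC content. It was -0.14 in the 2687 with the highest.

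**Figure D1:**
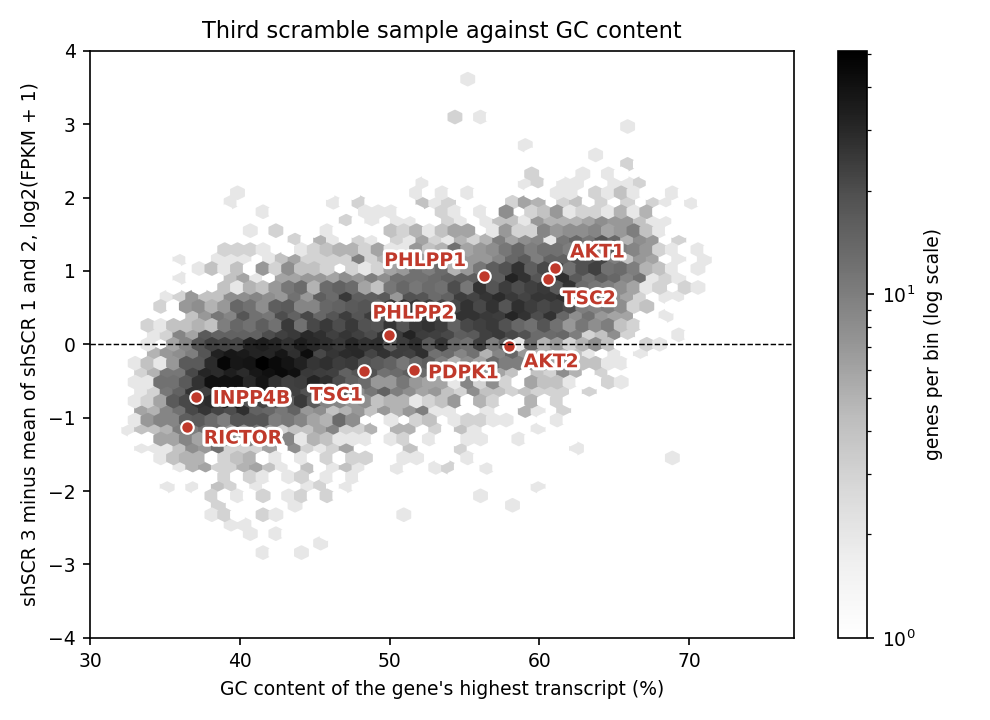
Difference between shSCR 3 and the mean of shSCR 1 and 2, in log2(FPKM + 1), against the GC content of each gene's highest transcript in percent; shading counts genes per bin, red points are the 9 genes, and 31 genes beyond 4 log2 units are not drawn. The cloud climbs with GC content, with RICTOR and INPP4B at its lower left and AKT1, TSC2 and PHLPP1 at its upper right.

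AKT1 was the most abundant of the 9 genes, at a mean of 59.9 FPKM over the 6 samples. Below it came AKT2 at 17.6, TSC2 at 15.97, PDPK1 at 10.6, TSC1 at 6.56, PHLPP1 at 5.63, RICTOR at 3.27, PHLPP2 at 2.57 and INPP4B at 1.17 FPKM. AKT1 lay above AKT2 in every sample, PDPK1 above TSC1, and PHLPP2 above INPP4B, with no overlap of their ranges. The ranges of all other neighbours in this order overlapped. INPP4B was close to the minimum mean of 1 FPKM required for testing.

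**Figure D2:**
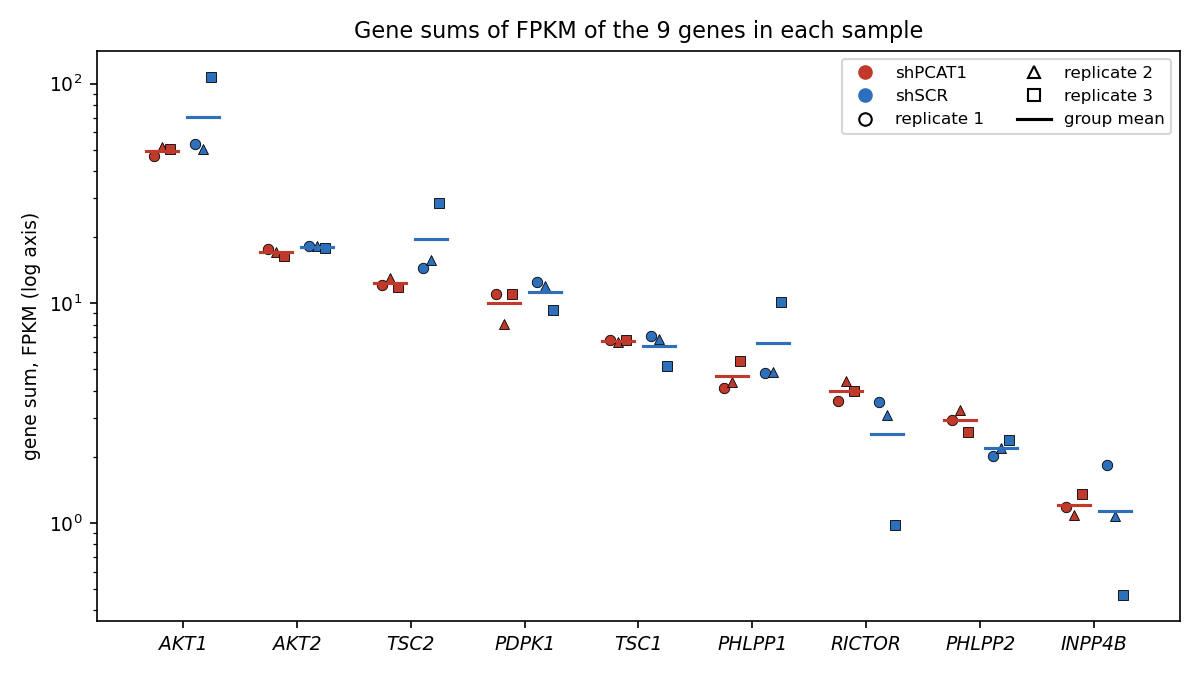
Gene sums of FPKM on a log axis for the 9 genes, ordered by mean level, in the 3 shPCAT1 samples (red, left) and the 3 shSCR samples (blue, right); marker shapes give the replicate number and bars the group means. The third shSCR sample (blue square) lies far from the other shSCR samples for AKT1, TSC2, PHLPP1, RICTOR and INPP4B.

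None of the 9 gene sums passed the test between shPCAT1 and shSCR. In limma over 10825 genes, 95 genes (0.878%) passed an adjusted p of 0.05, and the smallest adjusted p among the 9 was 0.353, for TSC2. An unadjusted p of at most 0.05 was reached by 0 of the 9 and by 17.2% of all genes. Without shSCR 3, 869 of 10825 genes (8.03%) passed and again 0 of the 9, the smallest adjusted p being 0.133, for TSC2. In that fit 2946 of 10825 genes had an unadjusted p of at most 0.05, among them TSC2 and PHLPP2 of the 9. PHLPP2 and RICTOR were higher in every shPCAT1 sample than in any shSCR sample, which held for 14.8% of all genes, and AKT2 and TSC2 were lower in every one, which held for 17.7%. These counts of 2 and 2 among 9 genes were near the shares among all genes.

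**Figure D3:**
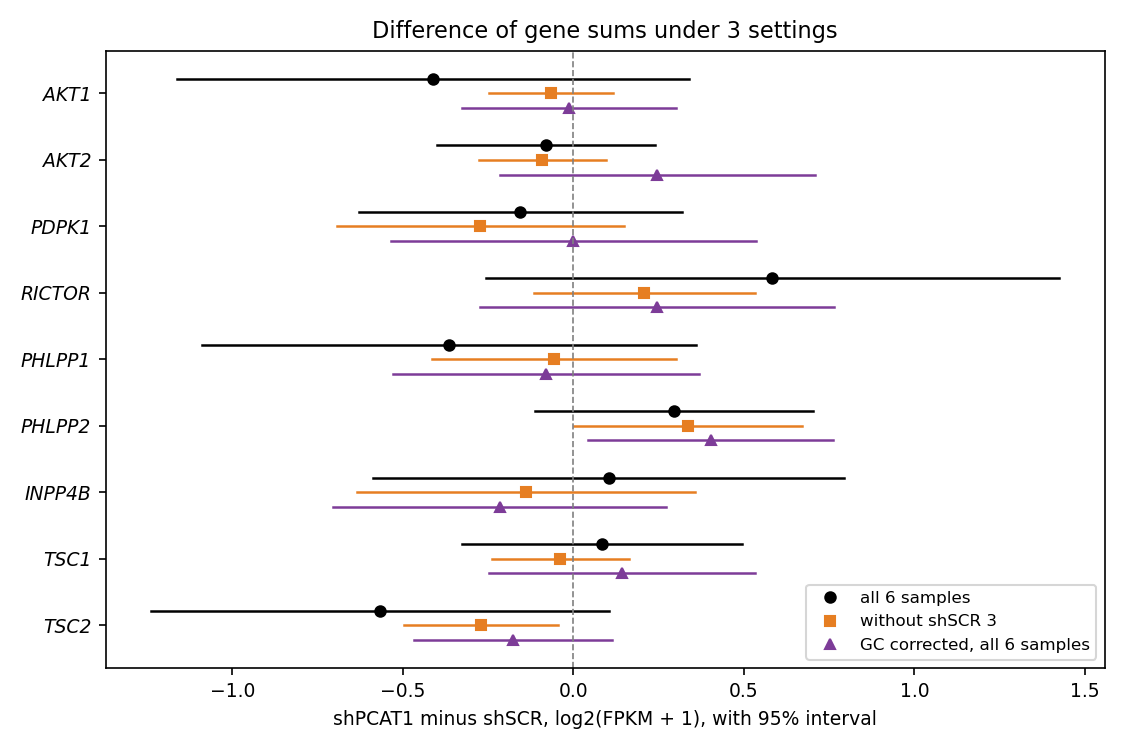
Difference between shPCAT1 and shSCR in log2(FPKM + 1) for each gene, with its 95% interval from limma, over all 6 samples (black circles), without shSCR 3 (orange squares) and after GC correction (purple triangles). The intervals for AKT1, PHLPP1, TSC2 and RICTOR shorten and their centres move towards 0 once shSCR 3 is left out.

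AKT1, the main AKT kinase of most tissues, was at 46.9, 51.3 and 50.2 FPKM in shPCAT1 samples 1 to 3, against 52.9, 50.7 and 108 FPKM in shSCR samples 1 to 3. The 5 samples other than shSCR 3 thus lay within 46.9 to 52.9 FPKM, and shSCR 3 was alone above them. The group means were 49.5 ± 2.27 FPKM in shPCAT1 and 70.4 ± 32.3 FPKM in shSCR (SD, n = 3 each). The log2 difference was -0.41 (SE 0.31, 95% interval -1.16 to 0.34, limma adjusted p = 0.506). Without shSCR 3 it was -0.07 (SE 0.07, interval -0.25 to 0.12, limma adjusted p = 0.591), and after GC correction -0.01.

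For several AKT1 transcripts the shares did not overlap between the groups, but 0 of these differences passed the test. How often shares did not overlap over all transcripts was not counted, so no shift particular to AKT1 is read from them. The table lists 8 AKT1 transcripts on the minus strand of chromosome 14 (hg19). In GENCODE v44 on GRCh37, which holds 7 of them, 6 carry the same coding sequence of 1440 bases, starting at base 105258980. They differ in their leader exons upstream of it and in their 3' ends, of which that of AKT1-004, at base 105236678, is the shortest. AKT1-002 (chr14:105235686-105262016 in the deposited table) joins the most upstream leader exon, chr14:105261821-105262085, directly to the exon with the start codon. AKT1-001 has a further leader exon, chr14:105259464-105259547, between them. AKT1-003 and AKT1-006 start inside a longer form of that exon, at bases 105260865 and 105260037. The 6 transcripts share all coding exons and the reads were short and single, so the division of AKT1 reads among them is an estimate that rests on the exons outside the coding sequence.

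AKT1-002 held the largest share of AKT1 in every sample. It was at 22.9, 33.6 and 34.0 FPKM in shPCAT1, against 37.3, 37.1 and 86.3 FPKM in shSCR. Its share of the gene was 48.7%, 65.5% and 67.8% in shPCAT1, against 70.4%, 73.3% and 80.2% in shSCR, so that all shPCAT1 samples lay below all shSCR samples. The mean share was 60.7% ± 10.4 in shPCAT1 and 74.7% ± 5.03 in shSCR (SD, n = 3 each). The difference was -13.98 percentage points (SE 8.16, 95% interval -33.8 to 5.82, limma adjusted p = 0.789) and did not pass the test, and without shSCR 3 it was -11.2 points (SE 7.83).

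AKT1-006 lay on the opposite side, higher in all shPCAT1 samples. It was at 9.04, 6.08 and 7.42 FPKM in shPCAT1, against 5.07, 4.22 and 0.440 FPKM in shSCR, with no overlap. The difference on the log2 scale was 1.24 (SE 0.58, 95% interval -0.18 to 2.65, limma adjusted p = 0.548). Without shSCR 3 it was 0.58 (SE 0.20, unadjusted p = 0.0406, limma adjusted p = 0.316). AKT1-003, named after its values were seen, had 7.68, 5.03 and 6.36 FPKM in shPCAT1, against 4.53, 3.99 and 1.67 FPKM in shSCR, again with no overlap. Together the 2 transcripts that start in the longer second leader exon held 35.6%, 21.7% and 27.5% of AKT1 in shPCAT1, against 18.1%, 16.2% and 1.97% in shSCR. They were put together after the values were seen. The share of each alone already did not overlap, so their sum could not overlap and adds no support. The lowest value was that of shSCR 3, but shSCR 1 and 2 also lay below the shPCAT1 samples.

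AKT1-001, also chosen after its values were seen, was listed at 0 in all 3 shPCAT1 samples and at 1.75, 1.66 and 1.62 FPKM in shSCR. Over the table, 6 of 29091 transcripts (0.0206%) were listed at 0 in every shPCAT1 sample with at least 1 FPKM in every shSCR sample, and 17 (0.0584%) showed the converse. Its mean was below the minimum for testing, and in the fit with no minimum its limma adjusted p was 0.178. A value of exactly 0 can be a failed estimate, and whether its reads were assigned to AKT1-002, which differs from it by 1 leader exon, was not tested. AKT1-004, AKT1-005, AKT1-014 and AKT1-018 together held 15.7%, 12.9% and 4.73% of AKT1 in shPCAT1, against 8.13%, 7.21% and 16.3% in shSCR.

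**Figure D4:**
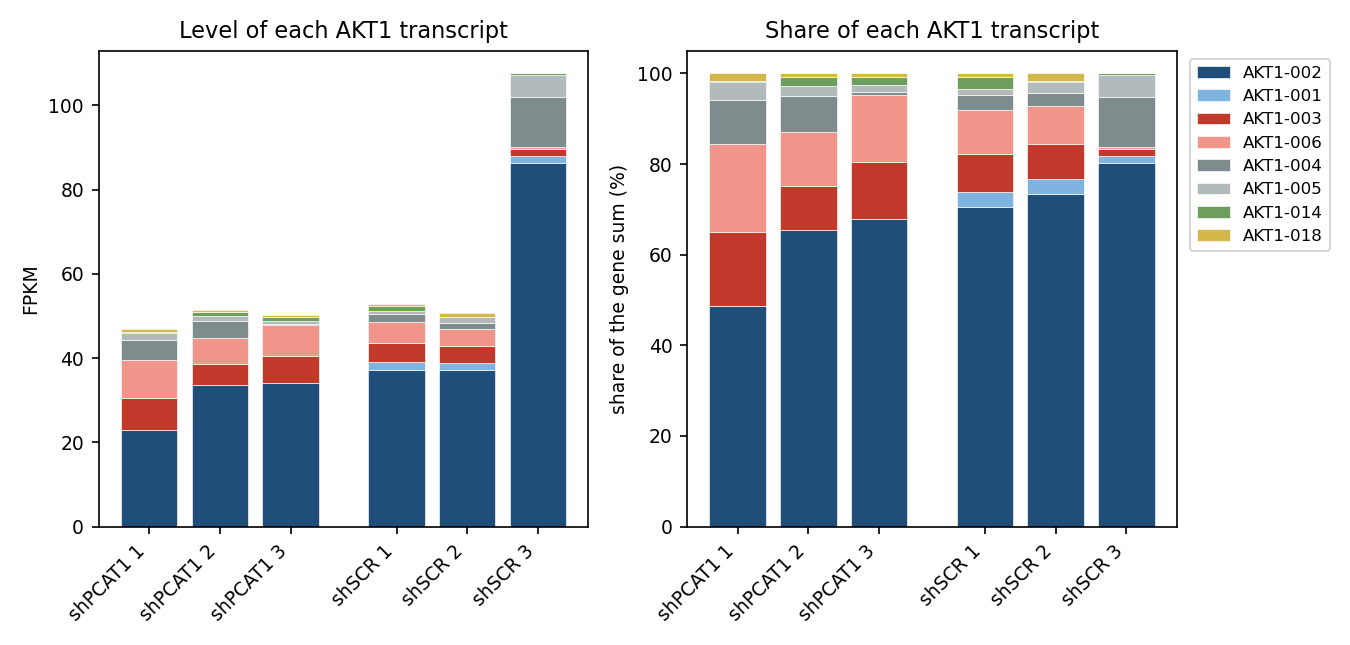
Level in FPKM (left panel) and share of the gene sum in percent (right panel) of the 8 AKT1 transcripts, stacked, in shPCAT1 samples 1 to 3 and then shSCR samples 1 to 3. The red segments, AKT1-003 and AKT1-006, hold 21.7% to 35.6% in the shPCAT1 samples and 1.97% to 18.1% in the shSCR samples, and the light blue AKT1-001 segment is seen in the shSCR samples alone. The red segments were put together after the values were seen.

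AKT2, the paralog best known for insulin-stimulated glucose uptake, was the steadiest of the 9 genes. It was at 17.7, 17.1 and 16.4 FPKM in shPCAT1, against 18.3, 18.2 and 17.8 FPKM in shSCR. The groups did not overlap, but the gap between the nearest samples was smaller than the spread within shPCAT1. On the log2 scale the difference was -0.08 (SE 0.13, 95% interval -0.40 to 0.24, limma adjusted p = 0.757), and -0.09 without shSCR 3 (interval -0.28 to 0.10). After GC correction the sign turned, to 0.25. AKT2-001 (chr19:40736224-40791302, minus strand) held 93.9% ± 0.445 of the gene in shPCAT1 and 92.6% ± 4.22 in shSCR (SD, n = 3 each).

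The site at which mTORC2, PHLPP1 and PHLPP2 meet lies in the last coding exon of both kinases. The last 51 coding bases of each, without the stop codon, are printed because they hold that site. They were read from the minus strand of GRCh37 at chr14:105236681-105236731 (codons 464 to 480 of AKT1-002) and chr19:40739782-40739832 (codons 465 to 481 of AKT2-001). Capitals mark the serine codon of the hydrophobic motif, codon 473 in AKT1 and codon 474 in AKT2.
AKT1-002: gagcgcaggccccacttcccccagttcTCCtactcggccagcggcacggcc
AKT2-001: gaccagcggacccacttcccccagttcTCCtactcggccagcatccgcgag
The 2 stretches differ at 12 of 51 bases and the marked codon is the same. All 6 AKT1 transcripts with the shared coding sequence end in it, so the transcripts with different leaders encode the same site. The minor transcript AKT2-025, which held 4.24% ± 0.724 of AKT2 in shPCAT1 and 3.10% ± 1.55 in shSCR (SD, n = 3 each), ends upstream of it, at base 40740405. The motif was also found in 0 reading frames of the annotated coding sequences of AKT1-018 and AKT2-021. AKT2-021 held 1.86% ± 0.359 of AKT2 in shPCAT1 and 4.32% ± 2.71 in shSCR (SD, n = 3 each).

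PDPK1 encodes PDK1, which phosphorylates the activation loop of AKT and of many other AGC kinases. It was at 11.03, 8.07 and 10.98 FPKM in shPCAT1, against 12.45, 11.96 and 9.37 FPKM in shSCR. The groups overlapped. The log2 difference was -0.16 (SE 0.19, 95% interval -0.63 to 0.32, limma adjusted p = 0.684). Without shSCR 3 it was -0.27 (95% interval -0.69 to 0.15, limma adjusted p = 0.344), and all shPCAT1 samples then lay below the remaining shSCR samples. PDPK1-001 (chr16:2587965-2653189, plus strand) held 97.3% ± 2.60 of the gene in shPCAT1 and 94.6% ± 8.66 in shSCR (SD, n = 3 each), and the share of PDPK1-003 was highest in shSCR 3, at 15.4%. These values are uncertain, because the pseudogene PDPK2P, a near-identical copy of part of the gene, lies beside it at chr16:2666454-2692433, and reads of the copies may have been split between them.

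RICTOR was at 3.61, 4.41 and 3.98 FPKM in shPCAT1, against 3.54, 3.10 and 0.977 FPKM in shSCR. The groups did not overlap, but the lowest shPCAT1 sample was close to the highest shSCR sample, and shSCR 3 was far below all others. The difference on the log2 scale was 0.58 (SE 0.34, 95% interval -0.26 to 1.43, limma adjusted p = 0.425), and 0.21 without shSCR 3. With GC correction and without shSCR 3 it was 0.057 (limma adjusted p = 0.810). Of the 9 genes RICTOR had the lowest GC content. RICTOR-001 (chr5:38938021-39074510, minus strand) and RICTOR-002 (chr5:38940122-39074501) differ in 1 coding exon, number 32 of 39 in RICTOR-002, which adds 24 codons in frame. It is printed because it is their one coding difference. Capitals mark the exon, chr5:38949458-38949529 of GRCh37 read from the minus strand, with 10 intron bases on either side.
RICTOR-002 exon: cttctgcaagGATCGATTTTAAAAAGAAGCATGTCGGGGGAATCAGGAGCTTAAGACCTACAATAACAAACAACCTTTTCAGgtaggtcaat
RICTOR-002 held 50.8%, 16.4% and 14.95% of the gene in shPCAT1, against 30.4%, 26.0% and 0% in shSCR. The groups overlapped, and the difference of 8.56 percentage points (SE 13.3, limma adjusted p = 0.863) was within the spread between replicates.

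PHLPP1 had a single listed transcript, PHLPP1-001 (chr18:60382683-60647666, plus strand). It was at 4.12, 4.40 and 5.44 FPKM in shPCAT1, against 4.81, 4.89 and 10.1 FPKM in shSCR, and shSCR 3 was again the outlying value. On the log2 scale the difference was -0.36 (SE 0.30, 95% interval -1.09 to 0.36, limma adjusted p = 0.537), and -0.06 without shSCR 3.

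PHLPP2, the paralog of PHLPP1, was higher in all shPCAT1 samples, and its difference was not smaller once shSCR 3 was left out. It was at 2.95, 3.26 and 2.59 FPKM in shPCAT1, against 2.02, 2.20 and 2.39 FPKM in shSCR. The lowest shPCAT1 sample was above the highest shSCR sample, which was shSCR 3. The log2 difference was 0.29 (SE 0.17, 95% interval -0.11 to 0.70, limma adjusted p = 0.412), and it was 0.34 without shSCR 3 (unadjusted p = 0.0496, limma adjusted p = 0.183). After GC correction it was 0.40 (limma adjusted p = 0.253), and with GC correction and without shSCR 3 it was 0.39 (limma adjusted p = 0.152). The difference did not pass the adjusted test in any of these fits.

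The PHLPP2 reads were assigned to different transcripts in shSCR 3. PHLPP2-003 (chr16:71682073-71757785, minus strand) was at 2.93, 3.22 and 2.58 FPKM in shPCAT1, against 2.02, 2.17 and 0.446 FPKM in shSCR. PHLPP2-004 (chr16:71678831-71749432) was at 1.94 FPKM in shSCR 3 and at no more than 0.037 FPKM in any other sample. Its share was 81.3% in shSCR 3 and at most 1.43% elsewhere. PHLPP2-003 had a log2 difference of 0.70 (SE 0.38, limma adjusted p = 0.584), and without shSCR 3 one of 0.33 (SE 0.16, limma adjusted p = 0.433). The coding exon that PHLPP2-003 holds and PHLPP2-004 lacks, number 13 of 19, is printed because it is the longest coding stretch that separates the transcripts that replaced each other in that sample. Capitals mark the exon, chr16:71697802-71698002 of GRCh37 read from the minus strand, which adds 67 codons.
PHLPP2-003 exon: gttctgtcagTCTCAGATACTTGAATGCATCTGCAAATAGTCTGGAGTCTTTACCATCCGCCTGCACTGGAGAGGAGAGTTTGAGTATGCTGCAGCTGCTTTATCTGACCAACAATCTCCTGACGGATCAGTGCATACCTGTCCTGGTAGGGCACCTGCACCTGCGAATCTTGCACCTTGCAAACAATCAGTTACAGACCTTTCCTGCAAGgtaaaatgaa

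INPP4B, which removes a phosphate from phosphatidylinositol 3,4-bisphosphate, was the lowest of the 9 genes. It was at 1.19, 1.09 and 1.36 FPKM in shPCAT1, against 1.84, 1.08 and 0.471 FPKM in shSCR. The shSCR samples enclosed the shPCAT1 samples on both sides. The difference on the log2 scale was 0.10 (SE 0.28, 95% interval -0.59 to 0.79, limma adjusted p = 0.862), with the sign turned to -0.14 without shSCR 3. Its 2 transcripts, INPP4B-001 and INPP4B-201, have the same coding sequence of 2772 bases in GENCODE v44. INPP4B-001 held 100%, 100% and 1.67% of the gene in shPCAT1, against 11.2%, 1.97% and 100% in shSCR, and INPP4B-201 was listed at 0 in 3 of the 6 samples. Either transcript thus took nearly all reads of a sample, in samples of both groups, and no level of a single INPP4B transcript is read from these values.

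TSC2, whose protein AKT phosphorylates, had the smallest p of the 9 genes. It was at 12.1, 13.1 and 11.9 FPKM in shPCAT1, against 14.4, 15.7 and 28.7 FPKM in shSCR. All shPCAT1 samples were below all shSCR samples, with or without shSCR 3. On the log2 scale the difference was -0.57 (SE 0.28, 95% interval -1.24 to 0.11, limma adjusted p = 0.353). Without shSCR 3 it was -0.27 (unadjusted p = 0.0284, limma adjusted p = 0.133), and after GC correction -0.18. With GC correction and without shSCR 3 it was -0.11 (limma adjusted p = 0.473). TSC1, the partner that stabilises TSC2, was at 6.82, 6.67 and 6.77 FPKM in shPCAT1, against 7.08, 6.85 and 5.16 FPKM in shSCR. Its log2 difference was 0.09 (SE 0.17, 95% interval -0.33 to 0.50, limma adjusted p = 0.805), and it turned to -0.04 without shSCR 3.

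Of the TSC2 transcripts, the largest difference in FPKM was that of TSC2-003 (chr16:2097990-2138703, plus strand). This transcript was at 4.73, 6.54 and 6.66 FPKM in shPCAT1, against 10.2, 9.32 and 23.7 FPKM in shSCR, with no overlap. Its log2 difference was -1.04 (SE 0.39, 95% interval -1.98 to -0.09, unadjusted p = 0.0369, limma adjusted p = 0.515), and without shSCR 3 it was -0.63 (SE 0.19, unadjusted p = 0.0225, limma adjusted p = 0.255). TSC2-004 (chr16:2098021-2138713) was at 5.92, 5.10 and 2.28 FPKM in shPCAT1, against 4.11, 3.75 and 4.75 FPKM in shSCR, a log2 difference of 0.00 (SE 0.35). TSC2-017 (chr16:2098015-2138702) was at 1.41, 1.43 and 2.91 FPKM in shPCAT1, against 0.144, 2.65 and 0.240 FPKM in shSCR. The share of TSC2-003 was 39.2%, 50.1% and 56.2% in shPCAT1, against 70.5%, 59.3% and 82.6% in shSCR. All shPCAT1 samples lay below all shSCR samples. The mean difference of -22.3 percentage points (SE 9.64, 95% interval -45.7 to 1.12) had an unadjusted p of 0.0587 and a limma adjusted p of 0.789, and without shSCR 3 it was -16.4 points (SE 8.05, limma adjusted p = 0.779).

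TSC2-003 and TSC2-004 differ in the coding region by 1 exon of 129 bases, number 26 of 41 in TSC2-004, and by 3 bases at 1 splice acceptor, and TSC2-017 lacks a further exon of 111 bases. These stretches are printed because they tell the coding regions of the 3 transcripts apart. Capitals mark, on the plus strand of GRCh37, the exon at chr16:2127599-2127727, the exon at chr16:2103343-2103453 and the 3 bases at chr16:2129033-2129035 that TSC2-004 and TSC2-017 keep and TSC2-003 skips.
TSC2-004 exon: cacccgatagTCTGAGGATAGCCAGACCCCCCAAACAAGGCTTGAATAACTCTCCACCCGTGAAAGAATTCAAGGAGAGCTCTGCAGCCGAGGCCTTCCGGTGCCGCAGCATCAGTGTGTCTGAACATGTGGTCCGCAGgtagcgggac
TSC2-003 exon: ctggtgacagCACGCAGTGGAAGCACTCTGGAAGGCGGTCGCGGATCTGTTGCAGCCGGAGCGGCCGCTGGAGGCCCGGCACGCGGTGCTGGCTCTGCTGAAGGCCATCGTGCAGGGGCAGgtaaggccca
TSC2 acceptor: ctctccctccagCAGgatacagacgtc
The exon that TSC2-017 lacks has 70.3% GC and the exon that sets TSC2-004 apart has 55.8% GC. The part of base composition in the shares was not tested.

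**Figure D5:**
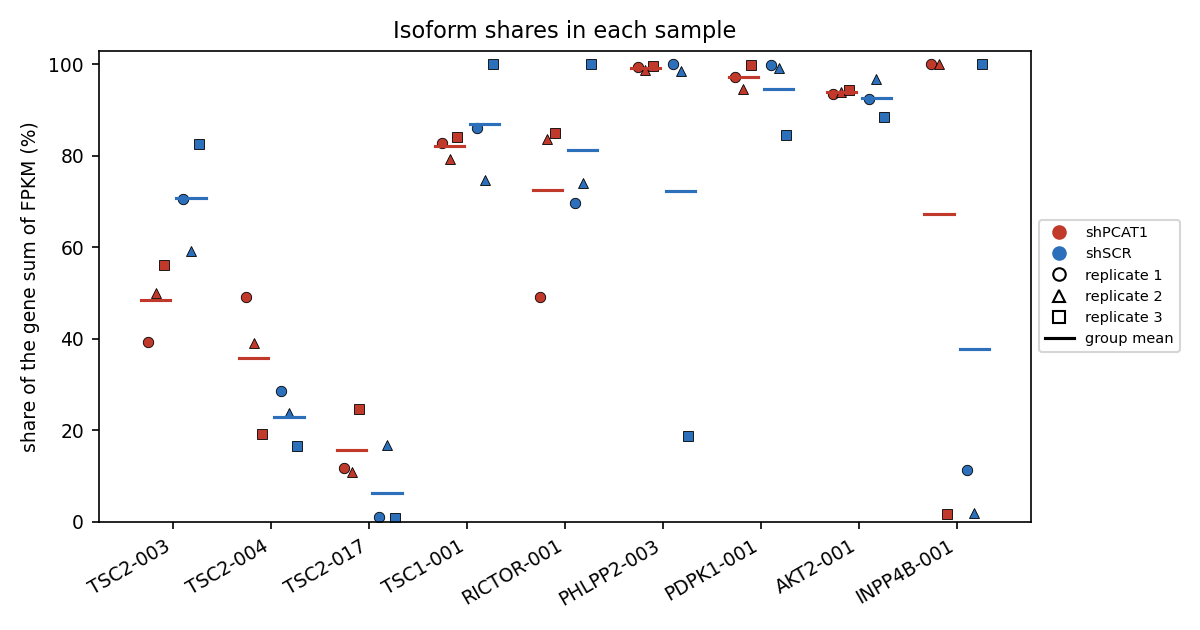
Share of the gene sum, in percent, of 9 transcripts of TSC2, TSC1, RICTOR, PHLPP2, PDPK1, AKT2 and INPP4B in the 3 shPCAT1 samples (red, left) and the 3 shSCR samples (blue, right); marker shapes give the replicate number and bars the group means. TSC2-003 is the one transcript shown whose groups do not overlap, and PHLPP2-003 is at 18.7% in the third shSCR sample and above 98% in the others.

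Over all transcripts of the 9 genes, no call was made. Of the 25, 15 had a mean of at least 1 FPKM and were tested among 20474 transcripts, of which 20 (0.0977%) passed an adjusted p of 0.05 and 0 were of these genes. One, TSC2-003, had an unadjusted p of at most 0.05 and was lower, against 4.92% of all transcripts. Without shSCR 3 AKT1-006 and TSC2-003 had such a p, as did 3018 of all 20474 transcripts. AKT1-003, AKT1-006 and PHLPP2-003 were higher in every shPCAT1 sample than in any shSCR sample, against 11.3% of all transcripts, and AKT1-002 and TSC2-003 were lower, against 11.2%. Of the shares, 17 were tested among 18699, with 4 calls in all (0.0214%) and 0 among these genes. Among the 17, AKT1-003 and AKT1-006 were higher and AKT1-002 and TSC2-003 lower in every shPCAT1 sample than in any shSCR sample. The shares of AKT1 are parts of the same sum and so depend on one another. This count was not made over all shares, and nothing is read from it. An unadjusted p of at most 0.05 was reached by 0 of the 17 shares and by 5.24% of all shares.

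Ratios between the paralogs and between the TSC partners were compared within each sample, where a scaling factor of the whole library has no part. A departure that moves with GC content can remain in a ratio of genes that differ in GC content. AKT2 over AKT1 was 0.378, 0.333 and 0.326 in shPCAT1, against 0.346, 0.359 and 0.166 in shSCR (exact permutation test, two-sided, p = 0.7, n = 3 each). PHLPP2 over PHLPP1 was 0.716, 0.740 and 0.476 in shPCAT1, against 0.420, 0.450 and 0.236 in shSCR. The shPCAT1 samples were all above the shSCR samples, with a log2 difference of 0.83 and an exact two-sided p of 0.1, the smallest that 3 against 3 samples allow. TSC2 over TSC1 was 1.77, 1.96 and 1.75 in shPCAT1, against 2.04, 2.30 and 5.57 in shSCR, with a log2 difference of -0.70 and the same exact p of 0.1. Without shSCR 3 the log2 differences were 0.54 for PHLPP2 over PHLPP1, -0.25 for TSC2 over TSC1 and -0.03 for AKT2 over AKT1, whose sign thereby turned. With GC correction over all samples they were 0.48, -0.32 and 0.26 in the same order. With Benjamini-Hochberg adjustment over the 3 ratios the exact p-values were 0.15, 0.15 and 0.7.

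The wider pathway was described with 8 lists holding 104 genes, of which 98 were in the table and 94 were tested. In all, 1 gene rose and 2 fell, where 0.333% of all genes rose and 0.545% fell, and the median log2 difference was -0.09, against -0.05 over all genes tested. The gene that rose was PIK3R1, the p85-alpha regulatory subunit of PI3K. It was at 18.7, 19.2 and 20.1 FPKM in shPCAT1, against 8.06, 6.55 and 5.68 FPKM in shSCR (log2 difference 1.40, SE 0.17, limma adjusted p = 0.0343). It was the single call among 13 tested PI3K subunits and lipid phosphatases. Those that fell were both in the list of 21 tested AKT substrates. CDKN1A, the CDK inhibitor p21, was at 36.2, 34.0 and 34.3 FPKM in shPCAT1, against 89.2, 83.3 and 88.3 FPKM in shSCR (log2 difference -1.30, SE 0.13, limma adjusted p = 0.0223). NOS3, the endothelial nitric oxide synthase, was at 1.64, 1.23 and 1.65 FPKM in shPCAT1, against 8.03, 7.31 and 11.1 FPKM in shSCR (log2 difference -1.96, SE 0.21, limma adjusted p = 0.0275). Both are AKT substrates at the protein level. The 3 calls were lost when any 1 sample other than shSCR 3 was left out. Calls over all genes then fell from 95 to between 4 and 11. With any 1 of the other 5 left out, the limma adjusted p was 0.0771 to 0.212 for PIK3R1, 0.078 to 0.171 for CDKN1A and 0.078 to 0.171 for NOS3, while the log2 differences stayed at 1.30 to 1.52, -1.33 to -1.28 and -2.07 to -1.80 for these genes under every such omission, that of shSCR 3 included. After GC correction CDKN1A was at -0.99 and no longer passed (limma adjusted p = 0.0587).

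Of 8 tested mTORC2 subunits and assembly factors other than RICTOR, 0 passed in limma, and 2 were lower with a p below 0.05 before adjustment, against 10% of all genes. MTOR, the kinase subunit, was at 11.3, 11.01 and 12.2 FPKM in shPCAT1, against 16.6, 18.2 and 20.1 FPKM in shSCR (log2 difference -0.62, SE 0.15, limma adjusted p = 0.133). DEPTOR, an inhibitory subunit of both mTOR complexes, was at 5.10, 4.36 and 5.77 FPKM in shPCAT1, against 9.78, 10.1 and 14.7 FPKM in shSCR (log2 difference -1.03, SE 0.21, limma adjusted p = 0.0991). Both passed without shSCR 3, at limma adjusted p = 0.0358 for MTOR and 0.0337 for DEPTOR. In that fit 4 of the 94 pathway genes rose (PIK3R1, MAP3K5, HSP90AA1 and PIK3C2A) and 8 fell (CDKN1A, NOS3, FOXO1, PRKCA, DEPTOR, PRKCD, MTOR and PPP2R2A), against 8.03% of all genes called in either direction.

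Beyond these, 0 genes of the lists passed in limma over all 6 samples, and before adjustment 7 of the 94 were higher and 11 lower with a p of 0.05 or less, the called genes included. These counts were near the background of 7.23% higher and 10% lower over all genes. Among the AKT substrates, FOXO1, a transcription factor that AKT keeps out of the nucleus, had a log2 difference of -1.10 (limma adjusted p = 0.0862). The difference was 0.78 for MAP3K5, a stress kinase inhibited by AKT (limma adjusted p = 0.0954). Of 13 tested proteins that dock on AKT, the chaperones HSP90AA1 and HSP90AB1 were at differences of 0.38 and 0.35, and their co-chaperone CDC37 at -0.59 (limma adjusted p = 0.192, 0.212 and 0.1996). Of 12 tested subunits of PP2A, the phosphatase that acts on the activation loop of AKT, PPP2R5B had the smallest p, with a difference of -0.41 (limma adjusted p = 0.310). Of 8 tested regulators of PHLPP stability, USP1, a deubiquitinase, was at 0.82 (limma adjusted p = 0.156). SLC9A3R1, the scaffold that binds both PHLPP proteins, was at 14.4, 17.8 and 15.4 FPKM in shPCAT1, against 22.2, 22.3 and 63.3 FPKM in shSCR (limma adjusted p = 0.317). Of 15 other AGC kinases, PRKCD was at -0.79 and PRKCA at -0.80 (limma adjusted p = 0.0904 and 0.149), and of 4 tested genes of the TSC and mTORC1 list, RHEB at -0.29 (limma adjusted p = 0.564).

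Genes whose values ran most nearly parallel to a member were found by the root mean square distance between centred log2(FPKM + 1) values over the 6 samples. For AKT1 these were NCDN, RFXANK and DDX54, at 0.024, 0.032 and 0.032, against a median of 0.50 over all genes. Their GC content was 62.7%, 61.2% and 60.6%, against 61.1% for AKT1. For AKT2 they were HNRNPC, HSPA12A and CDH1, at 0.015, 0.016 and 0.023, with 40.2%, 48.2% and 48.2% GC, against 58.0% for AKT2. The nearest to PHLPP1 were HMGN1, GTF2E1 and AP2A1, at 0.032, 0.037 and 0.050, with 44.4%, 43.0% and 61.8% GC, against 56.3% for PHLPP1, and AKT1 was rank 102 for it at 0.10. HSP90B1, HEATR1 and MICU2 were the nearest to PHLPP2, at 0.035, 0.044 and 0.054, with 41.8%, 41.5% and 38.4% GC, against 49.96% for PHLPP2. AKT1 lay 0.10 from PHLPP1 and 0.11 from TSC2, the genes that were also high in shSCR 3, and 0.40 from AKT2.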

How the data were processed

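Poly(A) RNA of 6 samples was sequenced from strand-specific libraries with short single-end reads. The authors' processing notes name HISAT2 2.0.4 and hg19, whereas a different aligner, run on Ensembl gene models, is given in the methods of the study. Which was used is not settled by the sources used here. The deposited FPKM values were computed by the authors with Ballgown for each transcript, and the table lists protein-coding transcripts only. The authors' group means, fold changes, p-values and q-values, also deposited, were not used.

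FPKM were summed by gene name, put on the scale log2(FPKM + 1), a pseudocount of 1 that understates changes of low genes, and kept at a mean of at least 1 FPKM. Gene sums, transcripts and shares (mean of at least 5%) were tested with limma 3.58.1 in R 4.3.3 (eBayes with trend and robust, no covariate), Benjamini-Hochberg adjusted over all features and called at 0.05. The study's DEGseq is a count tool, so limma took its place. The 3 ratios had an exact permutation test. The fits were also run on simulated data with independent noise for each value. These held no sample that departed along GC content, so they do not show how the fits behave with one like shSCR 3. GC content and exons came from GENCODE v44 on GRCh37 (24 of 25 transcripts matched, 13 with the deposited start and end). GC correction removed a loess curve per sample.

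Members and lists were chosen with earlier results of these data known. All 9 genes were named, transcripts with a mean share of at least 10% or p of at most 0.05, and of each list the called genes and up to 3 more with the smallest p. Alternatives were another pseudocount (0.1), filters, scalings, a replicate block, limma without trend, each sample left out, and GC correction, added for transcripts after seeing the data.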

Additional observations from a re-analysis of the deposited data

How the results depend on the processing

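No member passed the adjusted test under any of 16 alternatives to the comparison of gene sums, where the smallest adjusted p was 0.133, and 127 of 141 values kept their direction. The other 14 were reversed. AKT2 turned to 0.0096 with upper quartile scaling, to 0.25 with GC correction, with or without a replicate block, and to 0.051 with GC correction without shSCR 3. PDPK1 turned to 5.8e-05 and INPP4B to -0.22 with GC correction, with or without the block. With GC correction without shSCR 3, AKT1 was at 0.093, PHLPP1 at 0.071, TSC1 at -0.0013 and INPP4B at -0.28. In the same fit PHLPP2 at 0.39, RICTOR at 0.057, TSC2 at -0.11 and PDPK1 at -0.20 kept their direction. With 1 sample left out in turn, TSC1 ranged from -0.038 to 0.16 and INPP4B from -0.14 to 0.34. Of the transcripts, AKT2-001 turned to 0.0055 with upper quartile scaling, 0.030 with quantile normalization and 0.13 with GC correction, TSC2-004 to 0.054, 0.040 and 0.24, and TSC1-001 to -0.025 with GC correction. With 1 sample left out, PDPK1-001 ranged from -0.30 to 0.036, TSC2-004 from -0.21 to 0.33, TSC1-001 from -0.015 to 0.091 and TSC1-003 from -0.076 to 0.65. Differences of shares, in percentage points, then ranged from -14.8 to 3.15 for RICTOR-001, -3.15 to 14.8 for RICTOR-002, -0.782 to 3.44 for AKT2-001, -2.26 to 5.41 for PDPK1-001, -10.97 to 1.62 for TSC1-001 and -1.62 to 10.97 for TSC1-003. The log2 difference of PHLPP2 over PHLPP1 was 1.64 when the highest transcript of each gene stood for the gene, and that of TSC2 over TSC1 -1.18 and of AKT2 over AKT1 0.67. For PHLPP2 that transcript was PHLPP2-003, which held 18.7% of the gene in shSCR 3 and 98.57% or more in every other sample. With GC correction PHLPP2 over PHLPP1 was 0.48, TSC2 over TSC1 -0.32 and AKT2 over AKT1 0.26. The causes were not tested.

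Of the pathway genes, 1 rose and 2 fell over all samples. With a filter at 5 FPKM 1 fell, NOS3 being lost at an adjusted p of 0.0569 with the same difference of -1.96. With GC correction 1 fell, CDKN1A being lost at -0.99 (adjusted p = 0.0587). Without shSCR 3 and with GC correction 2 rose and 6 fell. With 1 sample left out in turn 0 to 4 rose and 0 to 8 fell, all counts other than 0 being without shSCR 3. Over all genes 95 were called, 869 without shSCR 3, 4 to 11 without any other sample, 53 with a filter at 5 FPKM, 56 with a pseudocount of 0.1 and 684 with GC correction without shSCR 3. Over all transcripts 20 were called, against 5 with the filter at 5 FPKM, 9 with the pseudocount of 0.1, 13 with no filter, 86 without shSCR 3 and 1 to 10 without any other sample. Over all shares 4 were called, against 13 on the arcsine scale, 23 without trend, 7 without shSCR 3 and 0 without any other sample.

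The labels do not say whether equal replicate numbers pair the samples, and no pairing was seen in the values. The deviations of same-numbered samples correlated at -0.024, -0.014 and 0.021. With a replicate block 0 pathway genes were called in either direction, with or without GC correction, and over all features 2 genes, 0 transcripts and 0 shares. The ratios had the same differences with the block, 0.33 for AKT2 over AKT1, 0.83 for PHLPP2 over PHLPP1 and -0.70 for TSC2 over TSC1. With 3 samples a group and an unknown depth, levels near 1 FPKM, those of INPP4B first, are the least certain.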
